A study of Drosophila melanogaster with 3 samples.

Results

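The ush and cbt locus on chromosome arm 2L of Drosophila melanogaster held 22 of the 8996 regions bound by GFP-tagged Fru in the authors' thresholded list, and 59 of the 30000 regions in the pooled list from which it was drawn. The 2 genes were taken as the Ensembl annotation of BDGP6 places them. The interval covers both genes and 10 kb on each side, 84.3 kb in all (2L 466220 to 550560, dm6), and a region belongs to it when its summit, the position of strongest signal that the authors give for each region, lies inside. The locus was chosen by its signal values and ranks in these lists, and the positions, places and widths of its summits were in view, so they are given below as a description and carry no test.

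The gene ush (FBgn0003963, plus strand, 2L 476220 to 540560, 64341 bp) encodes U-shaped, a zinc-finger cofactor of the Friend of GATA family. It binds GATA factors such as Pannier, in patterning of the dorsal thorax and its bristles, and Serpent, in blood cell development, and modifies what they do to their target genes. The gene cbt (FBgn0043364, minus strand, 2L 476446 to 479688, 3243 bp) encodes Cabut, a zinc-finger transcription factor related to the mammalian TGF-beta inducible early genes. It is needed for dorsal closure of the embryo, and it is a target of the sugar sensor Mondo and its partner Mlx. All 3 annotated cbt transcripts start at 479688 and run against ush, inside the first intron of the ush transcripts that start furthest upstream. Fru proteins, which share a BTB domain and end in alternative zinc fingers, are known above all from male courtship.

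Chromatin came from whole wandering third-instar larvae of the strain fru-MiMIC-GFP, with both sexes mixed. This line carries an eGFP exon within an intron of the endogenous fru gene, so the fusion is made under the gene's own promoters, and it was precipitated with an anti-GFP antibody. The 3 biological replicates form 1 group, with no second genotype, sex or stage to compare. Whole animals pool every tissue, so binding in few cells and weak binding in many cells cannot be told apart, and no summit can be assigned to a cell type.

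The strength given for each region is the authors' signal value, a score whose scale is not given in the sources used here. It is compared only within a list, as a rank or as a percentage of the strongest region of the locus. Over the whole thresholded list the score runs from 104.5 to 15085 with a median of 201.4. Each replicate has a list of 30000 regions reaching far below the threshold. The lists hold no read counts, so the depth behind a value is unknown.

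The strongest summit of the locus lay upstream of cbt, between the cbt start and the second ush start. It stood at 481055, in a region of 845 bp (2L 480557 to 481401), 1367 bp upstream of the cbt start and 4835 bp downstream of the first ush start. Its pooled signal value of 5923 ranked 4 in the series. The sequence of 201 bases centred on this summit, chr2L:480955-481155, is shown first below because this is where the signal of the locus peaks. It is followed by 101 bases around each of the 3 next strongest summits: the cbt promoter summit (chr2L:480004-480104), an intronic summit between cbt and the second ush start (chr2L:485806-485906), and a summit in the intron common to all ush transcripts (chr2L:530382-530482). All are plus-strand sequence of the RefSeq Release 6 genome, which is dm6, and the capitals mark matches to the words searched for below.
upstream of cbt: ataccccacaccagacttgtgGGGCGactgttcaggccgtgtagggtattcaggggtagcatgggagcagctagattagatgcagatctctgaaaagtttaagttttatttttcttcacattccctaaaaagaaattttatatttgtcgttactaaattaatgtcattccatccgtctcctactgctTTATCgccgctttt
cbt promoter: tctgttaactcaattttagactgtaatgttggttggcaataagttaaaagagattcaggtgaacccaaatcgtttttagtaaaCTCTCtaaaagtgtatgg
intron of ush-RE and ush-RD: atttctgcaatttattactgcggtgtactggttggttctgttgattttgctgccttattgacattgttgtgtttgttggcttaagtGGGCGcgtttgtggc
intron common to ush transcripts: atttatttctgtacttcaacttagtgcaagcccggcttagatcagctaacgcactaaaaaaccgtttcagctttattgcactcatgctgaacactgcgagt

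In the 201-base window the word GGGCG began at -79 bp from the summit and TTATC, the reverse complement of the GATA core GATAA, at 87 bp. The cbt promoter sequence held CTCTC, the reverse complement of GAGAG, beginning 33 bp from the summit. The summit in the first intron of ush-RE held GGGCG beginning 36 bp away. The summit in the intron common to all ush transcripts held none of the words.

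**Figure D1:**
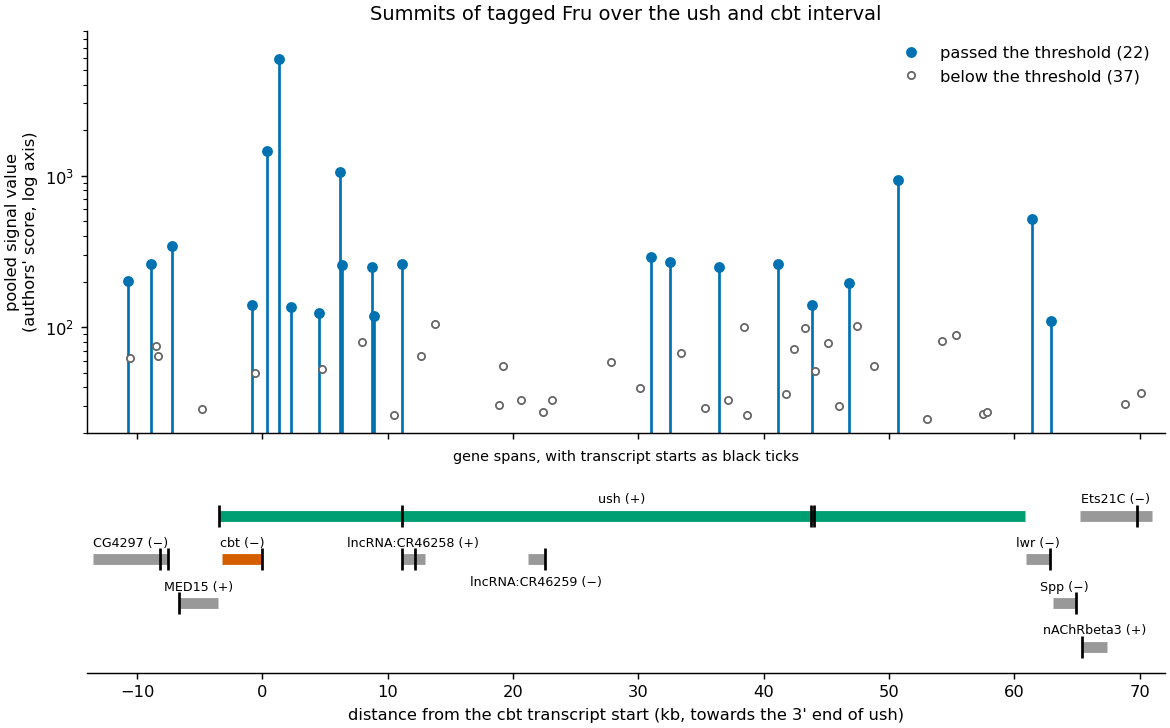
Pooled signal value (authors' score, log axis) of the 22 summits that passed the threshold (filled) and the 37 below it (open) against distance from the cbt transcript start in kb, with gene spans and transcript starts beneath. The tallest summit stands at 1.37 kb, the cbt promoter summit at 0.366 kb, and the filled summit at 11.1 kb is followed by a gap of 19936 bp.

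The summit upstream of cbt kept its place in all 3 replicates. It ranked 3 in replicate 1, 5 in replicate 2 and 4 in replicate 3, with signal values of 1781, 1634 and 2484 on the separate scales of those lists. The replicate summits fell at 481043, 481055 and 481050, so they spread over 12 bp, against a median spread of 47 bp for the thresholded summits of the whole series that were found in all 3 replicates. The replicate regions were 762, 816 and 816 bp wide. These widths stand apart from the widths that most regions have, which are 420, 430 and 450 bp in replicates 1, 2 and 3.

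No other summit of the locus came near it in signal. It exceeded the next strongest by 4.36-fold in replicate 1, 3.88-fold in replicate 2 and 3.53-fold in replicate 3, a mean of 3.92 ± 0.418 (SD, n = 3), and by 4.07-fold in the pooled list. The region is also among the widest of the series, with 43 of the 8996 thresholded regions wider than its 845 bp. The GC content of the 101 bases around its summit was 33.7%, near the median of 34.7% over all thresholded summits. It had 5 other thresholded summits within 5 kb, where the median summit had 2.

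The 5 other peaks most like it were found by the Euclidean distance of log2 ranks over the 3 replicates. The nearest, in the promoter of Ugalt, which encodes a transporter of UDP-galactose, ranked 4, 9 and 6 (distance 1.11). The promoter peak of Svil, the fly supervillin gene, ranked 6, 3 and 3 (1.31), and an intronic peak 1016 bp from a start of CG11050 ranked 7, 6 and 7 (1.49). The promoter peak of asl, a gene of centriole duplication, ranked 2 in every replicate (1.76), and an intronic peak 986 bp from a start of Lk6, which encodes a protein kinase, ranked 9, 8 and 8 (1.99). Of these 5 peaks 3 lay in promoters and 2 in introns, where 40.1 and 40.8% of all thresholded summits lay. The peaks were picked by replicate ranks alone, so nothing is read from their places.

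At cbt itself the strongest summit lay just upstream of the common start of its 3 transcripts. It stood at 480054, 366 bp upstream, in a region of 457 bp (2L 479841 to 480297), with a pooled signal value of 1454 at rank 146. It ranked 138, 158 and 123 in replicates 1, 2 and 3, and reached 22.9, 25.8 and 28.3% of the strongest summit there, a mean of 25.7 ± 2.71% (SD, n = 3). The replicate summits spread over 4 bp. This summit and the strongest one are separate regions, 1001 bp apart at their summits.

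A weaker summit lay within the cbt gene, at 478891 in the 5' UTR of cbt, 797 bp downstream of the start (rank 6719). It ranked 9520 in replicate 1 and 6015 in replicate 2. Replicate 3 had no summit within 100 bp of it, although a region there matched the neighbouring summit at 479098, which did not pass the threshold (rank 17312) and ranked 7167 in replicate 3 and 26098 in replicate 2. The promoter summit of cbt was thus placed alike in all replicates, and the summits within its 5' UTR were not.

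The 5 annotated ush transcripts begin at 4 positions, and signal at them was uneven. No thresholded summit lay within 2671 bp of the first start at 476220, used by ush-RD and ush-RE, and the closest summit of the pooled list was 1371 bp away at rank 26498. The closest summits of replicates 1, 2 and 3 were 1890, 1316 and 1180 bp away. The first ush start was therefore without a summit within 500 bp in every list used here.

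The second ush start, at 490835, is used by ush-RB and by the long non-coding RNA gene lncRNA:CR46258. A thresholded summit stood 36 bp upstream of it (490799, signal value 260.7, rank 3218), with ranks of 5775, 1640 and 3500 in replicates 1, 2 and 3. Its signal was 2.34, 7.64 and 4.60% of the strongest summit of the locus, a mean of 4.86 ± 2.66% (SD, n = 3), so replicate 2 was high and replicate 1 low. Because both genes start at the same base, the summit cannot be assigned to one of them.

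The remaining ush starts, of ush-RA at 523466 and ush-RC at 523736, lie on either side of a summit at 523582. It stood 116 bp downstream of the ush-RA start and 154 bp upstream of the ush-RC start, within exon 1 of ush-RA (signal value 141.0, rank 6651). It ranked 18524, 4815 and 9805 in replicates 1, 2 and 3, with a mean of 2.09 ± 1.52% of the strongest summit (SD, n = 3). The replicates did not place it alike, and in 1 of the 3 it was among the strongest 8996 regions.

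**Figure D2:**
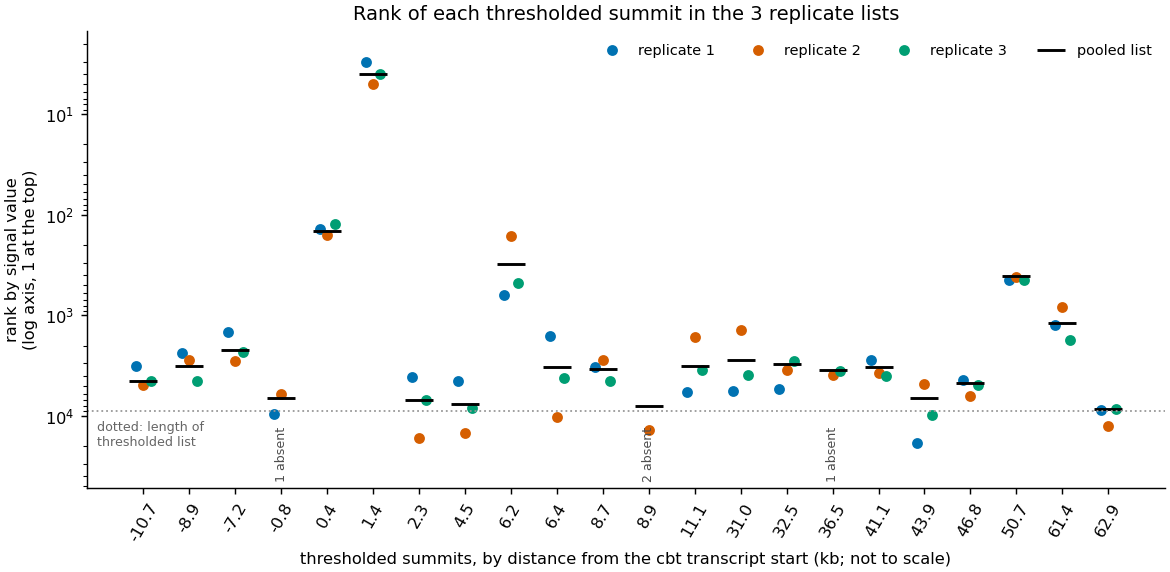
Rank by signal value (log axis, rank 1 at the top) of each of the 22 thresholded summits in replicates 1, 2 and 3 (points) and in the pooled list (bar), ordered along the locus by distance from the cbt start in kb; the dotted line is the length of the thresholded list. The summit at 1.4 kb ranked 3, 5 and 4, and the one at 50.7 kb ranked 451, 413 and 443. Marked absent are 3 summits with no summit within 100 bp in at least 1 replicate list.

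Most summits in the ush span lay in its introns, away from any start. Of the 17 thresholded summits in the span 13 were intronic, 3 were in promoters and 1 was in the 5' UTR of cbt. The promoters were that of cbt, that shared by ush-RB and lncRNA:CR46258, and that of ush-RA and ush-RC. Over the first intron of ush-RE, 13185 bp long, 9 summits stood in a row, those of cbt among them. The 34033-bp intron that follows held 4 intronic summits, and the 10586-bp intron common to all 5 transcripts held 2.

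Of the summits in the first intron, the one at 485856 was the strongest after the pair near cbt (2L 485541 to 486070, signal value 1060, rank 310). It ranked 636, 163 and 474 in replicates 1, 2 and 3, at 11.5, 25.7 and 16.3% of the strongest summit (mean 17.8 ± 7.22%, SD, n = 3). In replicate 2 it came within a few ranks of the cbt promoter summit, 163 against 158, whereas in replicates 1 and 3 it was well below it. A second summit 200 bp further on, at 486056, shares the left end of its region and ranked 1623, 10239 and 4160. Replicate 2, which was highest at the first of this pair, was lowest at the second.

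A similar close pair stood at 488413 and 488615, 202 bp apart. The first ranked 3304, 2781 and 4459 in replicates 1, 2 and 3. The second was matched within 100 bp in replicate 2 alone, at rank 13723. No pair of summits in any list lies closer than 199 bp. The summit at 481961 in this intron ranked 4102, 16514 and 7020 in replicates 1, 2 and 3. The one at 484230 ranked 4524, 14932 and 8375, so replicate 2 was the lowest at both.

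In the long second intron the 4 summits differed in how well the replicates placed them. The summit at 520831 (signal value 259.9) ranked 2787, 3763 and 3986, a mean of 4.30 ± 0.169% of the strongest summit (SD, n = 3), with replicate summits within 4 bp. The summit at 510735 ranked 5699, 1387 and 3928, and the one at 512209 ranked 5467, 3488 and 2834. The summit at 516167, whose region of 115 bp is the narrowest of the locus, ranked 3885 in replicate 2 and 3622 in replicate 3 and had no match in replicate 1.

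Among the summits downstream of the second ush start, the strongest in the ush span stood at 530432, in the intron common to all 5 transcripts (2L 530199 to 530635, signal value 937.7, rank 409). It ranked 451, 413 and 443 in replicates 1, 2 and 3, at 13.6, 16.8 and 16.8% of the strongest summit (mean 15.7 ± 1.85%, SD, n = 3). Its highest and lowest replicate ranks differed by 1.09-fold, the smallest ratio among the 19 summits of the locus matched in all 3 replicates. It lay 6696 bp from the nearest start, that of ush-RC. The other summit of this intron, at 526472, ranked 4374, 6376 and 4977.

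**Figure D3:**
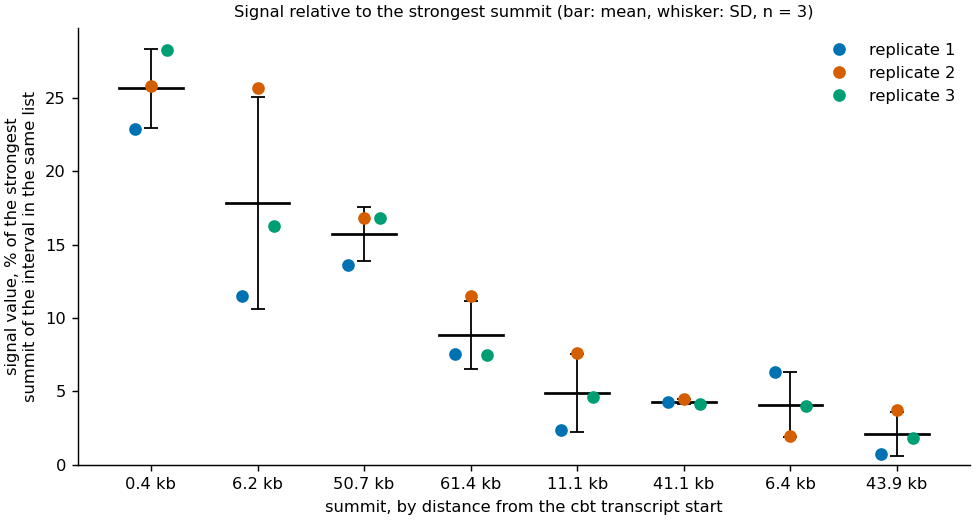
Signal value of 8 summits as a percentage of the strongest summit of the locus in the same replicate list, by distance from the cbt start in kb; points are replicates, bars are means and whiskers SD (n = 3). Shown are the summits of pooled rank 146 to 1196 and those at 6.4, 11.1, 41.1 and 43.9 kb. The latter were picked individually, and others of higher rank were left out. The cbt promoter summit (0.4 kb) averages 25.7 ± 2.71%, and the summit at 6.2 kb ranges from 11.5 to 25.7%.

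The summits along ush fell into a dense stretch, an empty one and a sparser one. From 478891 to 490799 the thresholded list held 10 summits over 11908 bp, with no step longer than 3 kb. The series had 5165 such runs, lone summits counted, of which 1987 held more than 1 summit. Of all these runs 17 held more summits than this one and 3 others held as many. The 3 kb step was chosen after seeing the data. The next thresholded summit followed after 19936 bp. Gaps larger than this made up 17.2% of all gaps between neighbouring thresholded summits, and the median gap was 2184 bp in the locus against 4115 bp overall.

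The empty stretch was not empty of weaker regions. It held 9 pooled regions below the threshold, the best at rank 9031. Replicates 1, 2 and 3 had 10, 11 and 12 regions there, of which 2, 0 and 0 were among the strongest 8996 of their list, a mean of 0.667 ± 1.15 (SD, n = 3). The dense stretch, 12.1 kb long, had 13, 15 and 11 regions, of which 9, 6 and 9 were among the strongest (mean 8.0 ± 1.73). The rest of ush, 29.9 kb, had 23, 23 and 26 regions (mean 24.0), of which 9, 9 and 6 were among the strongest (mean 8.0 ± 1.73). Over a whole list of 30000 regions the strongest 8996 are 30.0%. The stretches were cut at the largest gap between thresholded summits of the locus. The thresholded list derives from these replicates together, so the low counts between are a description that the cut itself favours.

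The number of summits in ush is set here beside that of other genes, as a description. The 17 summits in its span include those at cbt. They come to 2.64 per 10 kb, where arm 2L as a whole has 0.680 and the genome 0.654. Among 13968 protein-coding genes 14 had more thresholded summits in their span and 4 had as many. The 572 genes with a span of 0.5 to 2 times that of ush, ush among them, had a median of 2 summits (range 0 to 29) and of 0.335 summits per 10 kb; 11 of them had more summits than ush and 17 were denser. The highest of them was sbb, with 29.

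**Figure D4:**
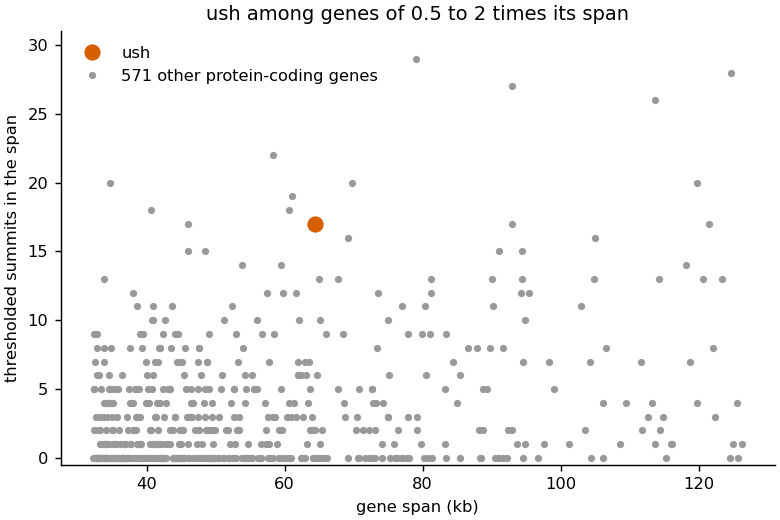
Number of thresholded summits within the gene span against gene span in kb, for ush (large point, 17 summits) and the other protein-coding genes of 0.5 to 2 times its span (small points). The median gene of this set of 572 has 2 summits and 11 genes lie above ush.

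The flanks of the locus held 5 thresholded summits. Upstream, 3 lay in or near CG4297: at 468950 and 470807 in its introns, and at 472473, 273 bp upstream of one of its starts (signal value 343.5, rank 2191). The last ranked 1451, 2848 and 2303 in replicates 1, 2 and 3 and lies 540 bp from the start of MED15, which encodes a Mediator subunit. Downstream, a summit at 541096 stood in the 3' UTR of lwr, the gene of the SUMO-conjugating enzyme Ubc9 (signal value 515.2, rank 1196). It ranked 1257, 834 and 1782, at a mean of 8.83 ± 2.31% of the strongest summit (SD, n = 3).

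A weak summit 36 bp upstream of the lwr start, at 542616, was the weakest of the locus inside the threshold (signal value 110.1, rank 8564). The strongest of the locus outside the threshold, at 493431, had a signal value of 104.2 at rank 9031, followed by 527111 with 101.7 and 518120 with 99.6. Genes at the far end had no thresholded summit within 500 bp of a start. These were Spp, a signal peptide peptidase gene, at 2037 bp, the nicotinic receptor subunit gene nAChRbeta3 at 2513 bp, and Ets21C, an ETS-domain transcription factor gene, at 6886 bp. Inside ush the same held for lncRNA:CR46259, at 8499 bp.

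Shares over the locus stand beside the same shares over the series here. The 22 thresholded regions are 37.3% of its 59 pooled regions, against 30.0% over the series. Of the 22 summits 19 (86.4%) had a summit within 100 bp in the whole lists of all 3 replicates, close to the 83.8% of all thresholded summits. Among the strongest 8996 regions of each replicate 14 (63.6%) were found in all 3, against 58.0%. Of the 37 regions below the threshold 9 (24.3%) were matched in all 3 whole lists, against 20.1% of all regions below it. Nothing is read from these shares, since the replicate ranks belong to the way the locus was picked.

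By place, 5 of the 22 summits (22.7%) were in promoters, within 500 bp of a transcript start, against 40.1% of all thresholded summits. In introns there were 15 (68.2%), against 40.8%, and between genes there were 0, against 16.6%. Places were in view when the interval was drawn around a long gene, so nothing is read from these shares. The median distance to the nearest start was 2347.5 bp in the locus and 970.5 bp over the series. The median signal value was 258.7 in the locus and 201.4 over the series.

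Region widths, which were in view when the locus was chosen, ran from 115 to 845 bp at the locus and from 115 to 1442 bp over the series. The most common width, 460 bp, applied to 10 of the 22 regions (45.5%) against 61.1% of all thresholded regions. A further 9 regions (40.9%) were narrower, against 34.4%, and 3 (13.6%) were wider, against 4.52%. The 3 wider ones were the strongest region and the overlapping pair at 485856 and 486056. Replicate summits of a region spread over a median of 32 bp (range 4 to 140), against 47 bp for the series. The ratio of the highest to the lowest replicate rank had a median of 1.93 (range 1.09 to 6.31) against 1.79, and was highest at 486056. Both measures exist only for the 19 summits matched in all 3 replicates, which leaves out those at 478891, 488615 and 516167.

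A set of 10 words was searched for on both strands within 50 bp of each summit. They were the GAGA factor word GAGAG, the DREF word ATCGATA, the GATA core GATAA, the E-box CACGTG with its variant CAGCTG, the KLF-type word CACCC with the related Sp-type word GGGCG, the AP-1 word TGACTCA, the word GGTCACA and the repeat CACACA. A single stretch can hold ATCGATA and GATAA overlapping. At least 1 word was found at 14 of the 22 summits, against 49.9% of all thresholded summits. GATAA was found at 5 summits (22.7%), as in 22.7% of all. GAGAG was found at 4 (18.2%), against 12.6%, and the E-box CAGCTG at 3 (13.6%), against 3.68%. Within 100 bp CAGCTG was still found at 3 summits, while its share of all thresholded summits was 8.41%.

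The CAGCTG summits were those at 470807 in CG4297, 523582 at the ush-RA and ush-RC starts and 541096 in lwr. GGGCG was found at 2 summits (9.09%), against 6.96%, and CACCC at 1, against 7.46%. ATCGATA was found at 1, the lwr promoter summit, against 2.83%. The other words were found at no summit, against 0.789% of all for CACGTG, 0.856% for TGACTCA, 1.36% for GGTCACA and 7.56% for CACACA. The strongest summit had none of the words within 50 bp. A match is a run of letters and no evidence of a bound factor, and with 22 summits each count is small.

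Genes related to ush and cbt by pathway or family were read for promoter summits. Of all 13968 protein-coding genes 24.6% had a thresholded summit within 500 bp of a start. Of 14 genes, either GATA factor genes or genes from the settings of ush in bristle and blood development, 6 had one. The strongest were those of CtBP, a corepressor (rank 1077, 487 bp from a start), the proneural gene ac (5260, 134 bp) and the GATA factor gene srp (5429, 164 bp). Chi, a LIM-domain cofactor gene, and pnr, the gene of Pannier, were among those without. Of 6 genes of the KLF and Sp family other than cbt, dar1 had one (rank 7119, 89 bp) and btd was among the 5 without.

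Of 4 genes of the sugar response 3 had promoter summits. These were bigmax, the fly Mlx gene (rank 1527, 142 bp from a start), the kinase gene Sik3 (2085, 207 bp) and Mondo (7051, 8 bp), and sug, a Gli-similar transcription factor gene, had none. Of 8 genes of JNK signalling and dorsal closure 4 had one. The strongest were at puc, a JNK phosphatase gene (2684, 44 bp), kay, the fly Fos gene (4525, 38 bp), and zip, the non-muscle myosin heavy chain gene (4784, 123 bp), and bsk, the JNK gene, had none. The lists are small and were chosen with earlier results of these data known. These counts carry no test, and nothing is read from them.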

How the data were processed

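Anti-GFP ChIP-seq of whole fru-MiMIC-GFP larvae was analysed from 3 biological replicates in 1 group; chromatin was sonicated to 200 to 800 bp, per the labels. A control experiment named in the labels was not analysed here. The lists deposited by the authors give, per region, positions, a summit and a signal value, a score with no unit. Aligner, caller, caller settings and threshold cutoff were not given in the sources used here. Checked on the values, the thresholded regions are the strongest of the pooled list, and all regions lie within the chromosome lengths of the reference.

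Summits are 1-based on dm6. Genes came from Ensembl BDGP6.54, release 115, without pseudogenes and transposable elements; sequence came from RefSeq Release 6. Summits within 100 bp matched, and a promoter is within 500 bp of a start. A summit not in a promoter went to the exon part (5' UTR first, then coding, then 3' UTR, then any other exon), and failing that to an intron or to intergenic sequence. To compare replicates, the 8996 strongest regions of each were taken. The matching step was tested on simulated lists with known answers. Placing was checked on points drawn from the annotation itself, and the counts were not tested in this way. Python 3.11.15, pandas 2.3.3, numpy 2.4.6 and matplotlib 3.10.9 were used.

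Named were ush, cbt, every gene starting in the interval, up to 3 members of each related list with the strongest promoter summit and 1 without, alphabetically, and the genes nearest to the 5 peaks most like the strongest one. The genes sbb and pnr were named after their values were seen. Mlx was matched to bigmax by synonym. The members and lists were chosen with earlier results of these data known. The run step of 3 kb and the span range of 0.5 to 2 times were chosen after seeing the data. No hypothesis was tested. Alternatives varied the flank, the threshold, the matching, the promoter distance, the starts, the word window and the replicates.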

Additional observations from a re-analysis of the deposited data

How the results depend on the processing

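Of 44 alternative values computed for the locus, 35 were within 1.5 times the value given above and 9 were not. Within that range lay 15 thresholded summits in the stronger part of the list and 17 with no flank, against 22, 14 found in all 3 replicates by overlap of 50% or among the strongest regions, against 19, and 7 in promoters of 1000 bp, against 5. Outside it, matching summits within 50 bp in place of 100 bp left 12 of the 22 thresholded summits in all 3 replicates, against 19. Promoters of 250 bp held 3 summits, against 5. Matching within 250 bp, or by an overlap of 1 bp, placed all 22 in all 3 replicates, which is within the range. Neighbouring summits may then share a replicate region. Leaving out 1 replicate at a time, 19 to 20 summits were in both others, and the strongest summit ranked 3 to 4 by mean rank. The other 7 values outside that range were counts of single words within 100 bp in place of 50 bp, each of them higher. The shares of all thresholded summits with these words rose too in the wider window. GATAA went from 5 to 11 summits, and from 22.7 to 39.0% of all. CACACA went from 0 to 1 summit, and from 7.56 to 17.3% of all. The related gene lists at promoters of 250 and 1000 bp were an alternative chosen after seeing the data. No paired analysis was possible because there is 1 group and no test. The signal values carry no read counts, so neither depth nor counting error can be given.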

Other observations

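Some regions below the threshold ranked much higher in 1 replicate than in the pooled list. The region with its summit at 490237, in a 5' UTR of ush and 598 bp upstream of the ush-RB and lncRNA:CR46258 start, ranked 4301 in replicate 1 and 12923 in replicate 2, had no match in replicate 3, and ranked 28511 in the pooled list. The region at 471401, 154 bp from a start of CG4297, ranked 4759 in replicate 3 and 15551 in replicate 1, had no match in replicate 2, and ranked 13988 in the pooled list. A further region, at 522975 and just past the threshold, 491 bp upstream of the ush-RA start, ranked 5728, 15852 and 9811 in replicates 1, 2 and 3 and 9515 in the pooled list. The regions named here were picked after their values were seen. Of the regions of replicates 1, 2 and 3 in the interval, 16 of 57, 20 of 60 and 20 of 62 had no pooled summit within 100 bp. The same share over the whole replicate lists is not given here, so nothing is read from these counts.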
